A study of Homo sapiens with 6 samples.

Results

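The receptors EGFR, ERBB2 and ERBB3, the ligands AREG, EREG, HBEGF, TGFA and BTC, and the feedback inhibitor ERRFI1 were read from a table of RNA levels per gene. They are 9 of the 58302 genes in that table, and they were found by gene name. The RNA came from MHCC97H, a human hepatocellular carcinoma cell line. One group of 3 libraries held cells with a non-target control, called control, and the other group of 3 held cells with a knockout of DDX17, the gene of an RNA helicase, called DDX17_KO. Both lines were made with CRISPR/Cas9 and grown in DMEM with fetal bovine serum. The labels do not say whether a line is 1 clone, or whether libraries of a group came from separate cultures, so p-values here measure only the spread between libraries, and that spread may be technical. Levels are FPKM, fragment numbers scaled by transcript length and by the depth of the library, and can be compared between genes. The RNA is bulk, so fewer cells with a transcript and less of it per cell cannot be told apart.

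The EGFR family are receptor tyrosine kinases at the cell surface. A ligand such as amphiregulin is made as a membrane-bound precursor, released by a protease, and brings 2 receptors together, after which the kinases phosphorylate each other and signal through RAS and ERK, PI3K and AKT, PLC-gamma and STAT proteins. ERBB2 has no known ligand of its own and pairs with the other receptors, and ERBB3, whose kinase is nearly inactive, binds neuregulins and docks PI3K. In the liver, EGFR and its ligands are known for their part in hepatocyte growth and regeneration after injury.

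Depth, estimated from the steps between low values, ran from 12340000 to 14550000 fragments in the control libraries and from 5350000 to 10620000 in DDX17_KO. The targeted gene DDX17 stood at 41.4 to 45.7 FPKM in controls and at 22.4, 7.64 and 19.1 FPKM in DDX17_KO replicates 1, 2 and 3. The library DDX17_KO replicate 2, the shallowest, and control replicate 2 deviated from their group means together, with a Pearson correlation of 0.546 across genes, so values without them are given where they matter. Of 11 liver markers, ALB and HNF4A included, 0 reached a mean of 1 FPKM; they summed to 0.714 to 0.986 FPKM in controls against 0.0372 to 0.0439 FPKM in DDX17_KO. Of 5 epithelial markers, 2, the keratins KRT8 and KRT18, reached a mean of 1 FPKM, while EPCAM, CDH1 and KRT19 stayed at or below 0.128, 0.116 and 0.337 FPKM in all libraries; the 5 summed to 283 to 338 FPKM in controls against 255 to 408 FPKM in DDX17_KO. The 6 red cell markers summed to 54 to 69.6 FPKM in controls against 0.0211 to 0.673 FPKM in DDX17_KO, and 5 fibroblast markers to 17.6 to 20.7 and 8.96 to 22.1 FPKM. The part of these differences in the values below was not tested.

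EGFR was by far the most abundant family member. It ranked between 59 and 241 among 19817 protein-coding genes in the 6 libraries, and its lowest library, at 78.9 FPKM, lay above the highest value of any other member, 14.4 FPKM of EREG. By mean over all libraries EREG followed at 6.91 FPKM, ERBB2 at 4.38, ERRFI1 at 3.19, TGFA at 2.77, HBEGF at 2.37, AREG at 1.18, ERBB3 at 0.307 and BTC at 0.0819 FPKM. The ranges over libraries overlapped between each neighbouring pair in this order, except between EGFR and EREG and between AREG and ERBB3. Receptor RNA was thus mostly of 1 kind and exceeded ligand RNA, and EGFR stood at 7.64 to 13 times the summed FPKM of the 5 ligands.

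**Figure D1:**
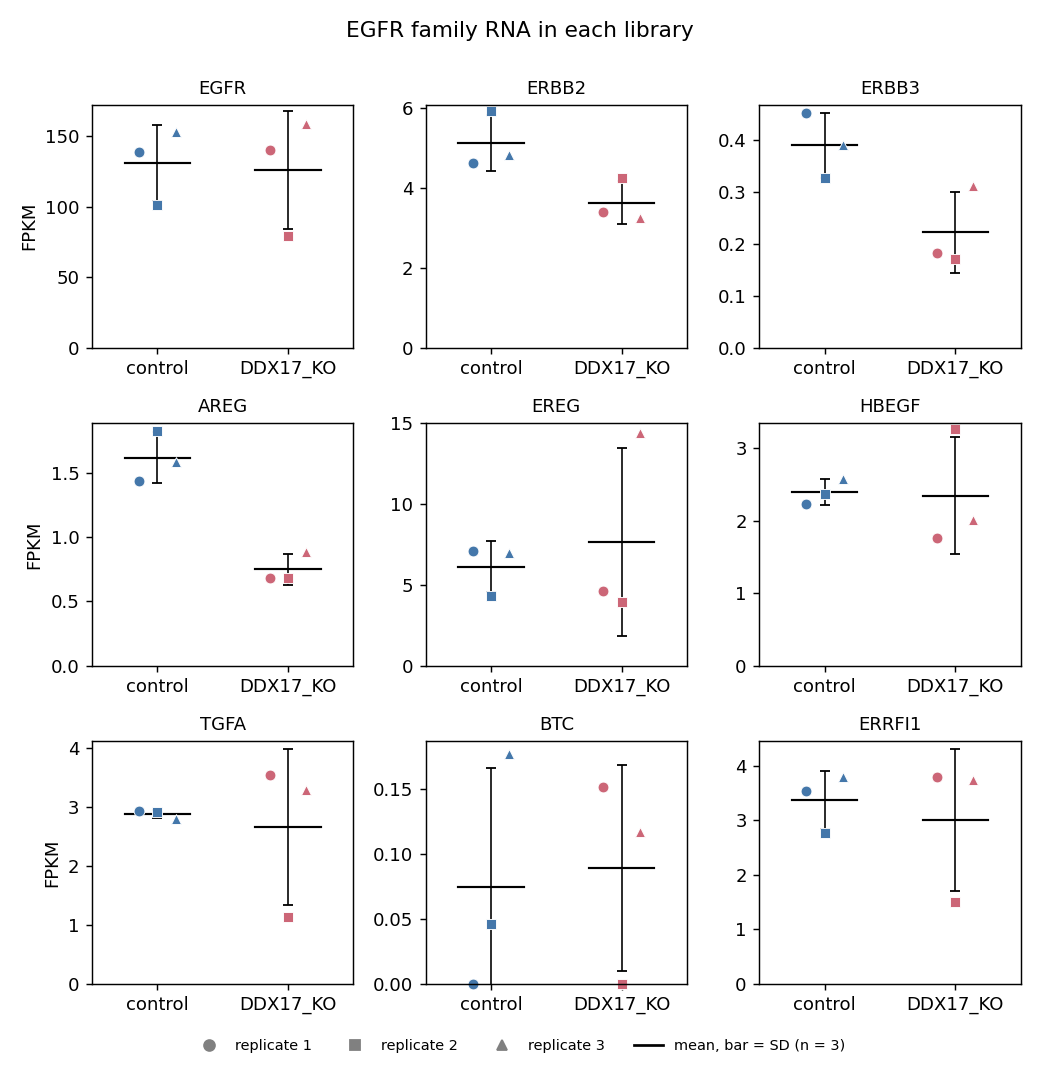
FPKM of each of the 9 genes (vertical axes, 1 scale per gene, starting at 0) in 3 control and 3 DDX17_KO libraries; symbols mark the replicate, lines the mean and bars the SD, cut at 0 for BTC. AREG, ERBB2 and ERBB3 lie lower in all DDX17_KO libraries than in all controls, while in the other genes the groups overlap. Among all genes tested, which leave out ERBB3 and BTC, 12.6% were lower without overlap.

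By limma on log2(FPKM + 1), 7 of the 9 genes were tested, and ERBB3 and BTC lay below the minimum mean of 0.5 FPKM. At an adjusted p of 0.05 by limma, 0 of the 7 passed in either direction, against 6 of 15620 genes tested, 0.0384%, all of them lower. At an unadjusted p under 0.05 there was 1 of the 7, AREG, which was lower; among all genes 7.19% were lower and 6.31% higher by that rule. In 2 of the 7, AREG and ERBB2, the groups were apart, both lower in DDX17_KO, against 12.6% of all genes tested; 0 of the 7 were higher without overlap, against 8.09%. With pseudocounts, scalings, filters and single libraries varied, 0 members were called in every setting run. Among all genes the share called was 0.0256% with a replicate block or a pseudocount of 0.1 or 0.01, 0.032% with median-of-ratios scaling, 0.0098% with no filter, 0.0732% at a minimum mean of 2 FPKM, 0.0514% with a GC and length correction and 0.0257% with that correction and the block. It was 0.0192% without any one control or without DDX17_KO replicate 3, 0.0576% without DDX17_KO replicate 1, 3.66% without DDX17_KO replicate 2, 8.81% without both libraries numbered 2, and 2.18% with the GC and length correction without DDX17_KO replicate 2. In the other 5 tested members the groups overlapped.

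The upstream sequences of EGFR and of the neighbouring ligand genes EREG and AREG are shown because EGFR is the most abundant member and because EREG and AREG, which lie side by side, gave different patterns. They come from RefSeq, GRCh38.p14, plus strand, 5′ to 3′, and end before the first annotated exon base. Capitals mark matches to 4 motifs on either strand, none overlapping another. The TATA box was searched as TATAAA and the GC box as GGGCGG. The AP-1 site was searched as TGANTCA. The cyclic AMP response element, or CRE, was searched as TGACGTCA. The stretches are chr7:55018767-55019016 for EGFR, chr4:74364895-74365142 for EREG and chr4:74444886-74445133 for AREG.
EGFR: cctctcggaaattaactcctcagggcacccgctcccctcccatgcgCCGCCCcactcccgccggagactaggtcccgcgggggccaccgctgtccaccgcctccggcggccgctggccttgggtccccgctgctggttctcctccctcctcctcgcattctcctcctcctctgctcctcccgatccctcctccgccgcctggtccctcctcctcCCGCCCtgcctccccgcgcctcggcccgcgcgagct
EREG: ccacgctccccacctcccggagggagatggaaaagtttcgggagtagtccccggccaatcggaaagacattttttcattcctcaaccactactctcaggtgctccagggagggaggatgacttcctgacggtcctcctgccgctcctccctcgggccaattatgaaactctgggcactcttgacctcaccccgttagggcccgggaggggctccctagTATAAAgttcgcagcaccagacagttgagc
AREG: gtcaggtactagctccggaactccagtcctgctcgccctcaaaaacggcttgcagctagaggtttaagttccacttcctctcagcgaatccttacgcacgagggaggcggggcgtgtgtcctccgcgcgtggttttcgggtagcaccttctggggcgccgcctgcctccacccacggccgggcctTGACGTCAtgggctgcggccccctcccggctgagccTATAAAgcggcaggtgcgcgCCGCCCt
EGFR had 2 GC boxes and 0 TATA boxes in this window, in a sequence of 73.6% G and C. EREG had 1 TATA box, at 58.1% G and C, and AREG had 1 TATA box, 1 CRE and 1 GC box, at 65.3% G and C. No AP-1 match was found in any of the 3 windows. Among 35116 promoter entries of 250 bases, 10.7% held the TATA box, 42.6% the GC box, 6.57% the AP-1 letters and 1.65% the CRE. A match describes the letters only.

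EGFR RNA overlapped between the groups. The EGFR gene (ENSG00000146648) lies on hg38 chromosome 7, 55019021 to 55211628, plus strand. Control replicates 1, 2 and 3 measured 139, 101 and 153 FPKM, and the DDX17_KO replicates, in the same order as in all that follows, 140, 78.9 and 159 FPKM. In both groups replicate 2 was the lowest library, and the other libraries of the 2 groups lay close together. By limma, EGFR differed by -0.10 in log2 units (DDX17_KO over control; SE 0.31; 95% confidence interval -0.81 to 0.61; adjusted p 0.876). Leaving out control replicate 3 turned the sign, to 0.02, as did leaving out DDX17_KO replicate 2, to 0.20, or both libraries numbered 2, to 0.03. Correcting for the GC content and length of transcripts gave 0.06 and left replicate 2 low, with deviations of -0.43 from the control mean and -0.71 from the DDX17_KO mean in log2 units. The antisense gene EGFR-AS1, inside the EGFR locus, was listed at 0 in all 6 libraries.

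ERBB2 RNA did not overlap between the groups and was on the lower side in DDX17_KO. ERBB2 (ENSG00000141736, chromosome 17, 39687914 to 39730426, plus strand), the receptor that pairs with the others without a ligand, stood at 4.63, 5.94 and 4.83 FPKM in controls and at 3.39, 4.25 and 3.26 FPKM in DDX17_KO. The means were 5.13 ± 0.708 and 3.63 ± 0.536 FPKM (SD, n = 3 each). The groups were separate by a narrow margin, since the highest DDX17_KO library, replicate 2, stood close to the lowest control. By limma the difference was -0.41 in log2 units (SE 0.18; interval -0.82 to 0.01; adjusted p 0.371). An exact permutation test, two-sided, put ERBB2 at p = 0.1, below which 3 against 3 libraries cannot go.

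The ERBB2 difference was smaller after the correction for GC content and length, whose parts were not separated. The transcript of median length of ERBB2 is 64.7% G and C, and replicate 2 was the highest library in both groups, each 0.19 above its group mean in log2 units. After the correction these deviations were 0.03 in controls and -0.04 in DDX17_KO, and limma put ERBB2 at -0.11 with an adjusted p of 0.661. Uncorrected and with DDX17_KO replicate 2 left out, limma put ERBB2 at -0.50 with an adjusted p of 0.0897. With the same library left out and the correction made, limma put ERBB2 at -0.09 with an adjusted p of 0.61.

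The gene MIEN1, which lies on the other strand and shares 1931 of its 2292 bases with the end of the ERBB2 locus, followed ERBB2 closely. MIEN1 stood at 3.95, 4.93 and 4.15 FPKM in controls against 2.98, 3.65 and 2.81 FPKM in DDX17_KO (limma, -0.37 in log2 units, adjusted p 0.378). The ratio of MIEN1 to ERBB2 was between 0.83 and 0.88 in every library. Over the 6 libraries the log2 levels of the pair had a Pearson correlation of 0.999; the points share libraries and, where the genes overlap, possibly fragments. Whether strand was used in counting is not given in the sources used here. Without it, reads from the shared stretch cannot be assigned to 1 gene of the pair. PGAP3, on the other strand at the start of ERBB2, stood at 0.729, 1.27 and 0.874 FPKM in controls against 0.82, 1.29 and 0.775 FPKM in DDX17_KO; the groups overlapped there.

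**Figure D2:**
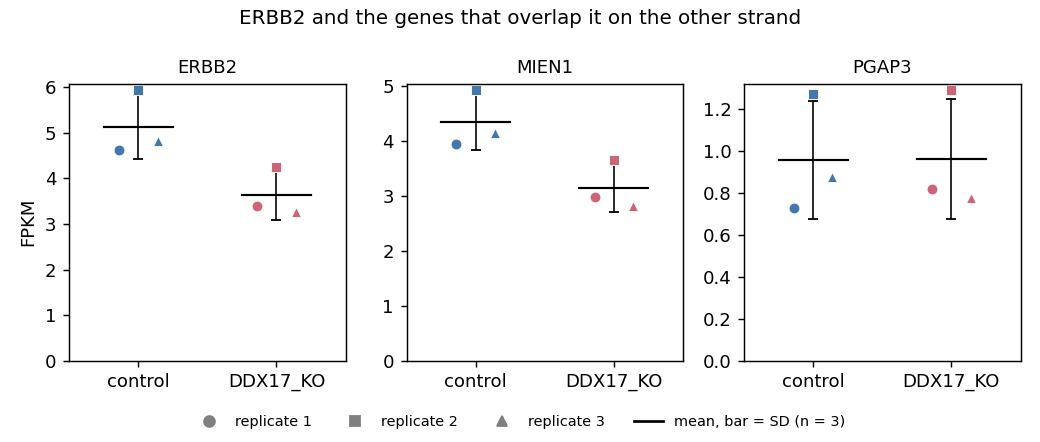
FPKM of ERBB2 and of MIEN1 and PGAP3, which overlap it on the other strand (vertical axes from 0), in 3 control and 3 DDX17_KO libraries; symbols mark the replicate, lines the mean and bars the SD. ERBB2 and MIEN1 show the same order of libraries, and PGAP3 has its highest value in replicate 2 of both groups.

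ERBB3, the receptor of neuregulins, was barely detected. ERBB3 (ENSG00000065361, chromosome 12, 56079857 to 56103505) stood at 0.453, 0.328 and 0.391 FPKM in controls and at 0.183, 0.172 and 0.312 FPKM in DDX17_KO. On its longest transcript, 5919 bases, these levels make at most 27 to 34 fragments in a control library and 5 to 15 in a DDX17_KO library. The groups did not overlap, yet DDX17_KO replicate 3 came close to control replicate 2. The 12.6% of all genes tested that were lower without overlap does not cover genes at this level. Tested with no filter on low values, ERBB3 was at -0.19 in log2 units, limma adjusted p 0.519.

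Within the receptors, EGFR made up 94.2% to 96.7% of the summed FPKM of the 3 in controls and 94.7% to 97.8% in DDX17_KO. The ratio of EGFR to ERBB2 was 30.1, 17 and 31.7 in controls and 41.2, 18.6 and 48.6 in DDX17_KO. Replicate 2 had the lowest ratio in both groups, and in replicates 1 and 3 the DDX17_KO value was higher than any control value.

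Among the ligands, all DDX17_KO libraries lay below all controls in AREG alone. AREG (ENSG00000109321, chromosome 4, 74445134 to 74455009, plus strand) encodes amphiregulin, a ligand that binds EGFR. It stood at 1.44, 1.83 and 1.59 FPKM in controls and at 0.684, 0.679 and 0.885 FPKM in DDX17_KO. The gap between the highest DDX17_KO library and the lowest control was wider than the spread inside the DDX17_KO group. The means were 1.62 ± 0.198 and 0.749 ± 0.118 FPKM (SD, n = 3 each), so the DDX17_KO mean was 0.463 of the control mean.

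By limma, AREG differed by -0.58 in log2 units (SE 0.16; interval -0.95 to -0.21). The unadjusted limma p was 0.007 and the adjusted p 0.312, so AREG did not pass over all genes, and a two-sided exact permutation test gave 0.1, its smallest possible p. At this low level the pseudocount sets the size: the difference was -1.02 with a pseudocount of 0.1 and -1.10 with 0.01. The sign was negative in all 18 other settings in which AREG was tested, and the limma adjusted p ran from 0.0669 to 0.79. Leaving out DDX17_KO replicate 2 gave -0.55 with an adjusted p of 0.0708, and the correction for GC content and length gave -0.77. The levels rest on few fragments, at most 22 to 32 in a control library and 5 to 9 in a DDX17_KO library on the longest transcript of 1240 bases.

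EREG, the most abundant ligand, overlapped between the groups. EREG (ENSG00000124882, chromosome 4, 74365143 to 74388751, plus strand) encodes epiregulin, a ligand of EGFR and ERBB4. It stood at 7.11, 4.3 and 6.99 FPKM in controls and at 4.63, 3.96 and 14.4 FPKM in DDX17_KO. DDX17_KO replicate 3 alone was above every control, and the other DDX17_KO libraries were near or below the lowest control. By limma, EREG differed by 0.11 in log2 units (SE 0.43; interval -0.89 to 1.11; adjusted p 0.905). Single libraries set its sign: it was -0.41 when DDX17_KO replicate 3 was dropped, -0.09 when control replicate 2 was dropped, and 0.41 when DDX17_KO replicate 2 was dropped.

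HBEGF, TGFA and ERRFI1 had small mean differences and a DDX17_KO replicate 2 that lay apart. HBEGF (ENSG00000113070, chromosome 5, 140332843 to 140346631), which encodes the heparin-binding ligand of EGFR and ERBB4, stood at 2.23, 2.37 and 2.58 FPKM in controls and at 1.76, 3.26 and 2.01 FPKM in DDX17_KO. Replicates 1 and 3 of DDX17_KO were below every control and replicate 2 above every control. Limma put HBEGF at -0.05 (interval -0.53 to 0.43; adjusted p 0.914). The value was -0.24 without DDX17_KO replicate 2, -0.49 with that library left out and the GC and length correction, 0.08 without replicate 1 and 0.02 without replicate 3.

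TGFA showed the opposite arrangement. TGFA (ENSG00000163235, chromosome 2, 70447280 to 70554193), the gene of the EGFR ligand transforming growth factor alpha, stood at 2.93, 2.91 and 2.8 FPKM in controls and at 3.54, 1.14 and 3.3 FPKM in DDX17_KO. The controls lay within a narrow band, with replicates 1 and 3 of DDX17_KO above it and replicate 2 far below. Limma put TGFA at -0.16 (interval -0.85 to 0.52; adjusted p 0.79), which became 0.19 when DDX17_KO replicate 2 was left out. That library, the shallowest, held at most 26 fragments of TGFA on the longest transcript. The same upper estimate was 117 to 176 in the other libraries.

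BTC, which encodes betacellulin, a ligand of EGFR and ERBB4, was near the limit of detection. BTC (ENSG00000174808, chromosome 4, 74744759 to 74794686) was listed at 0, 0.0462 and 0.177 FPKM in controls and at 0.151, 0 and 0.117 FPKM in DDX17_KO. On its longest transcript, 2816 bases, 3 fragments make 0.0863 FPKM in control replicate 1 and 0.199 FPKM in DDX17_KO replicate 2. These are the limits that a count of 0 allows on that transcript, for counting error only. On the shortest transcript, 624 bases, the limits would be higher. No difference was detectable at this depth.

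ERRFI1 encodes a cytoplasmic protein, also called MIG6, that binds the active kinases of the family and blocks them. ERRFI1 (ENSG00000116285, chromosome 1, 8004404 to 8026308) stood at 3.54, 2.77 and 3.79 FPKM in controls and at 3.79, 1.5 and 3.73 FPKM in DDX17_KO. As with EGFR, replicate 2 was lowest in both groups. Limma put ERRFI1 at -0.18 (interval -0.83 to 0.47; adjusted p 0.753), which became 0.13 when DDX17_KO replicate 2 was left out.

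**Figure D3:**
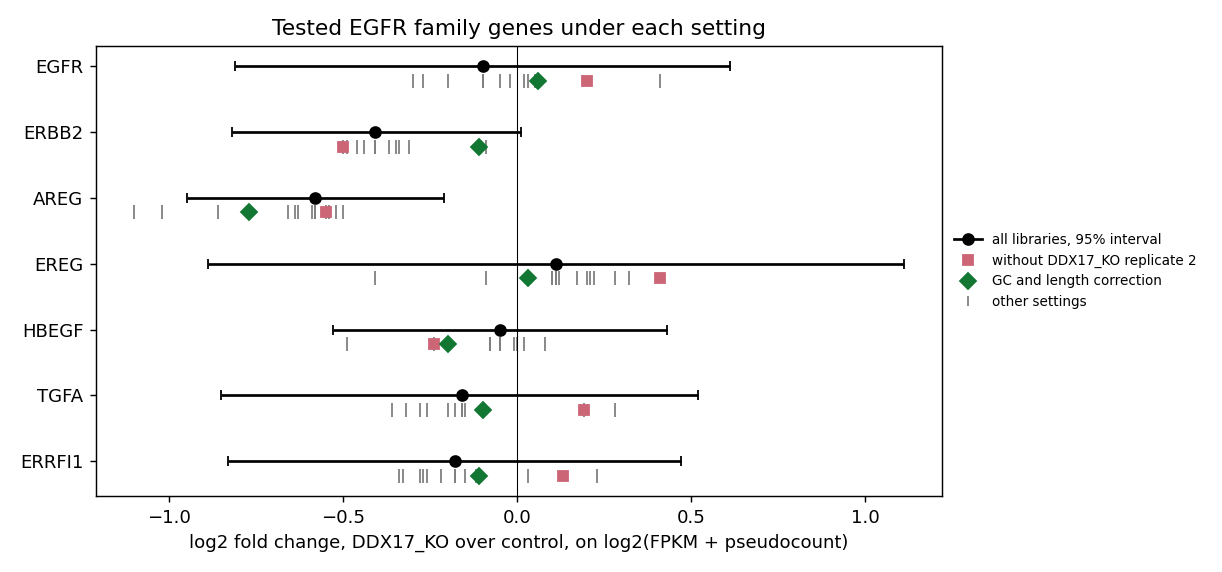
Log2 fold change of the 7 tested genes (horizontal axis, DDX17_KO over control, on log2 of FPKM plus the pseudocount); black points are the fit on all libraries with the 95% confidence interval, red squares leave out DDX17_KO replicate 2, green diamonds are corrected for GC content and length, and grey ticks are the other settings. AREG and ERBB2 stay below 0 throughout, ERBB2 close to 0 with the correction (-0.11), and the other 5 genes have settings on both sides of 0.

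The sum of the ligand RNA overlapped between the groups, while the share of AREG did not. The 5 ligands summed to 13.7, 11.5 and 14.1 FPKM in controls and to 10.8, 9.04 and 20.8 FPKM in DDX17_KO. AREG made up 10.5%, 16% and 11.3% of that sum in controls and 6.4%, 7.5% and 4.3% in DDX17_KO. EREG was the largest share in all libraries, from 37.5% to 51.9% in controls and from 43% to 69.6% in DDX17_KO. HBEGF made up 36.1% in DDX17_KO replicate 2 and 9.7% to 20.7% in the other libraries. The ratio of EREG to AREG was 4.95, 2.35 and 4.39 in controls and 6.77, 5.83 and 16.3 in DDX17_KO, which did not overlap. These shares follow from the values above and were given no test.

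**Figure D4:**
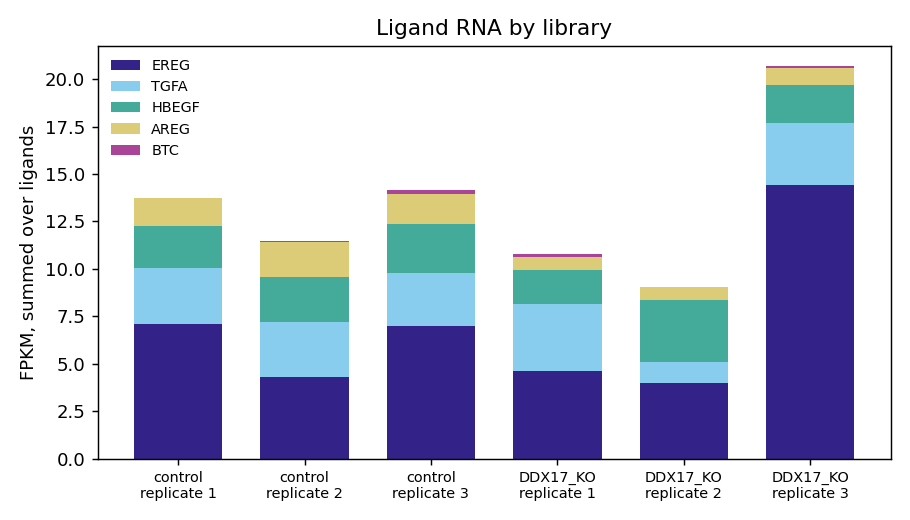
Summed FPKM of the 5 ligands (vertical axis, from 0) in each of 6 libraries, stacked by gene. EREG is the largest part in all libraries, AREG is thinner in the 3 DDX17_KO libraries, and the sum is highest in DDX17_KO replicate 3, at 20.8 FPKM.

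The ligand genes EPGN, EREG, AREG and BTC lie in this order on chromosome 4. EREG starts 49.8 kb after the end of EPGN, AREG 56.4 kb after EREG and BTC 289.8 kb after AREG. EPGN (ENSG00000182585), which encodes epigen, an EGFR ligand of low affinity, stood at 0.865, 0.965 and 1.7 FPKM in controls and at 2.88, 1.16 and 4.07 FPKM in DDX17_KO. DDX17_KO replicate 3 was the highest library for both EPGN and EREG and was also the highest of its group for AREG, but below the controls. Limma put EPGN at 0.70 (SE 0.33; adjusted p 0.373), and at 1.05 with an adjusted p of 0.0544 when DDX17_KO replicate 2 was left out.

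Of the 7 other ligands and receptors of the family, 3 were tested, and limma called 0 in either direction, 0 also at an unadjusted p under 0.05. NRG4, a neuregulin gene, was the most abundant of the 7 by mean and stood at 2.46, 2.28 and 2.53 FPKM in controls and at 3.54, 2.06 and 3.31 FPKM in DDX17_KO. ERBB4 ran from 0.0517 to 0.157 FPKM, EGF from 0 to 0.076 FPKM, and NRG3 was listed at 0 in all 6 libraries. The 3 tested genes had a median difference of 0.19 in log2 units, beside -0.03 for all genes tested.

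Some profiles over the 6 libraries resembled those of the leading receptor and ligand. The protein-coding genes closest to EGFR, by Pearson correlation of log2(FPKM + 1), were SMAD4 at 0.9968, PKP2 at 0.9958 and TRABD2A at 0.9953. Among 10648 genes ranked, 102 had a correlation above 0.95 with EGFR, and ERRFI1 had 0.96. These genes share with EGFR a low replicate 2 in both groups; SMAD4, for example, stood at 4.21, 2.62 and 4.59 FPKM in controls against 4.44, 1.63 and 5.12 FPKM in DDX17_KO. Closest to EREG were CDK14 at 0.9828, PDE4DIP at 0.9811 and NRG1, the gene of neuregulin 1, at 0.9808, with 22 genes above 0.95. NRG1 stood at 0.594, 0.438 and 0.589 FPKM in controls and at 0.449, 0.445 and 1.1 FPKM in DDX17_KO, so DDX17_KO replicate 3 was again the only high library. The correlations rest on 6 libraries and the few that lie apart.

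The proteases and partners that release the ligands gave mixed values. Of 13 genes in this list 10 were tested, limma called 0, and the median was -0.02 in log2 units. At an unadjusted limma p under 0.05 there was 1 lower and 0 higher, against 7.19% and 6.31% of all genes tested. Groups that did not overlap made up 12.6% of all genes tested on the lower side and 8.09% on the higher side. RHBDF1, the gene of the inactive rhomboid iRhom1 that carries the sheddase ADAM17 to the cell surface, was the only one whose groups did not overlap. It stood at 1.29, 1.71 and 1.41 FPKM in controls and at 0.624, 0.476 and 1.11 FPKM in DDX17_KO, limma adjusted p 0.368. ADAM17 itself, named for its role and not by the rule, stood at 8.72, 4.74 and 8.65 FPKM in controls and at 10, 6.73 and 10.3 FPKM in DDX17_KO, with replicate 2 lowest in both groups.

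In the cascade from adaptors through RAS to ERK, 21 genes were tested and limma called 0, with 1 higher and 2 lower at an unadjusted p under 0.05 and a median of 0.12 in log2 units. The groups did not overlap in 3 genes, all lower, against 12.6% lower and 8.09% higher among all genes tested. At an unadjusted limma p under 0.05 the shares of all genes were 7.19% lower and 6.31% higher. MAPK3, which encodes the kinase ERK1, stood at 6.15, 7.86 and 6.48 FPKM in controls and at 4.36, 4.96 and 3.81 FPKM in DDX17_KO, at -0.54 in log2 units, limma adjusted p 0.353. ARAF, a RAF kinase gene, measured 32.7, 45.3 and 31.5 FPKM in controls against 22.8, 28.5 and 23.6 FPKM in DDX17_KO, limma adjusted p 0.369. Neither passed.

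In the PI3K, AKT, PLC-gamma and STAT branches, 16 genes were tested and limma called 0. At an unadjusted limma p under 0.05 there were 1 higher and 3 lower, against 6.31% higher and 7.19% lower among all genes tested. The groups did not overlap in 1 higher and 4 lower, against 8.09% and 12.6% of all genes, and the median was -0.12. AKT1, the gene of a kinase downstream of PI3K, stood at 3.23, 4.38 and 3.31 FPKM in controls and at 1.9, 2.1 and 1.94 FPKM in DDX17_KO, close together in the second group, at -0.63 in log2 units, limma adjusted p 0.309. PIK3R2, a regulatory subunit gene of PI3K, stood at 11.5, 14.2 and 13.9 FPKM in controls and at 8.29, 0.915 and 7.12 FPKM in DDX17_KO. Its log2 fold change of -1.43 became -0.70 without DDX17_KO replicate 2. The higher gene was PIK3R1, another regulatory subunit gene of PI3K, whose mean of under 1 FPKM lay outside the naming rule, so it was chosen after its values were seen. It measured 0.48, 0.235 and 0.37 FPKM in controls against 0.957, 0.61 and 1.58 FPKM in DDX17_KO, limma adjusted p 0.369.

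Genes linked to the uptake, sorting or restraint of the receptors were tested in 26 of 27 cases and limma called 0. At an unadjusted limma p under 0.05 there were 1 higher and 2 lower. The groups did not overlap in 5 genes, all lower, against 12.6% lower and 8.09% higher among all genes tested. By the unadjusted limma p the shares of all genes were 7.19% lower and 6.31% higher. TNK2, which encodes a kinase that binds activated EGFR, stood at 2.37, 3.22 and 2.68 FPKM in controls and at 1.69, 1.82 and 0.93 FPKM in DDX17_KO, limma adjusted p 0.354. EPN1, the gene of the endocytic adaptor epsin 1, stood at 7.27, 9.45 and 7.99 FPKM in controls and at 5.71, 6.42 and 4.79 FPKM in DDX17_KO, limma adjusted p 0.369.

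Early and feedback genes that ERK is known to induce were mostly below 0, a pattern already known in these data when the list was written. Of 19 tested, 16 had a negative log2 fold change, against 52.5% of all genes tested, and the median was -0.34. DUSP6 at 0.44, PHLDA1 at 0.42 and SPRED1 at 0.16 were above 0, and MYC at -0.03 and SPRY2 at -0.01 lay near it. Limma called 0, with 0 higher and 4 lower at an unadjusted p under 0.05, against 6.31% and 7.19% of all genes tested. The groups did not overlap in 5, all lower, against 12.6% lower and 8.09% higher among all genes tested. DUSP4, which encodes a phosphatase of MAP kinases, was at 13.6, 14.7 and 14.1 FPKM in controls against 5.7, 8.18 and 7.31 FPKM in DDX17_KO, limma adjusted p 0.232. JUNB, an AP-1 subunit gene, was at 65, 87.1 and 73.6 FPKM against 38.8, 61 and 22.2 FPKM, limma adjusted p 0.366. EGR1 resembled HBEGF in its high DDX17_KO replicate 2: it stood at 65.5, 86.5 and 62.7 FPKM in controls and at 17.7, 83 and 6.95 FPKM in DDX17_KO, and was chosen after its values were seen.

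**Figure D5:**
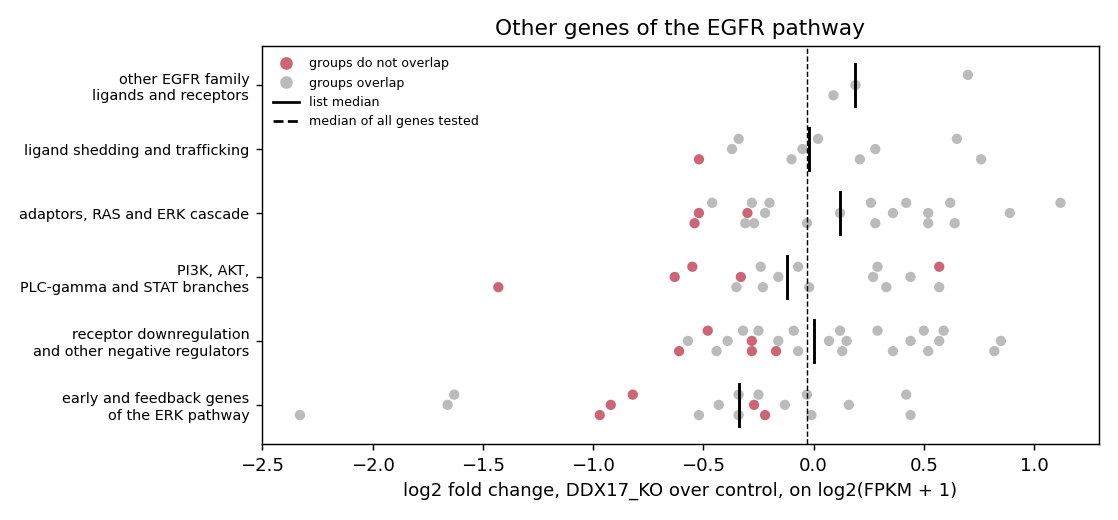
Log2 fold change of each tested gene (horizontal axis, DDX17_KO over control) in 6 lists of the EGFR pathway; red points mark genes whose groups do not overlap, black bars the list medians and the dashed line the median of all genes tested, -0.03. The early and feedback genes have the lowest median, -0.34, and the other list medians lie between -0.12 and 0.19.

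Without DDX17_KO replicate 2, limma called 7 genes of these lists and 0 of the EGFR family members, against 572 of 15620 genes tested, 3.66%. Of the 19 early and feedback genes tested, 5 were called, all lower: DUSP1, DUSP4, DUSP5, EGR1 and FOS. Of the 26 tested genes of receptor uptake, sorting or restraint, 1 was called, lower: LRIG1, which encodes a membrane protein that restrains EGFR. Of the 21 tested in the cascade from adaptors to ERK, 1 was called, higher: NF1, the gene of a RAS inactivator. The library left out had the lowest DDX17, at 7.64 FPKM. DDX17_KO replicates 1 and 3, which were kept, had 22.4 and 19.1 FPKM, and controls 41.4 to 45.7 FPKM. FOS stood at 23.4, 29.2 and 29.3 FPKM in controls and at 1.47, 41.7 and 0.683 FPKM in DDX17_KO. DUSP1 stood at 401, 521 and 407 FPKM in controls and at 76, 432 and 80.7 FPKM in DDX17_KO. In the library left out, FOS was thus above every control, and DUSP1 and EGR1 lay among the controls. DUSP4 and DUSP5 were below every control in that library too. LRIG1 stood at 3.58, 4.71 and 3.87 FPKM in controls and at 1.95, 5.64 and 1.63 FPKM in DDX17_KO. NF1 stood at 4.91, 1.91 and 4.32 FPKM in controls and at 13.4, 3.42 and 13.6 FPKM in DDX17_KO. With a correction for GC content and length and the same library left out, DUSP1, EGR1 and FOS were called, and DUSP4, DUSP5, LRIG1 and NF1 were not. Without both libraries numbered 2, limma called 18 genes of the lists, 10 higher and 8 lower, against 8.81% of all genes tested. The lists were written with earlier results of these data known, so no conclusion is drawn from such counts beside the shares.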

How the data were processed

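RNA of 3 control and 3 DDX17_KO libraries was compared, grouped and numbered by their titles. Expression was deposited as FPKM, 1 value for each gene in each library. CASAVA 1.8, HISAT2, StringTie, edgeR and hg38 are named, without their roles, in the submitters' processing notes; which annotation, strand setting or filter the authors applied is not given in the sources used here. In genes with 1 annotated transcript, FPKM times length fell within 0.05 of whole multiples of a step in 100.0% of values up to 20 fragments, which gave the depth of each library. Fragment numbers of genes with several transcripts are upper estimates from the longest transcript in GENCODE 29.

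limma 3.58.1 in R 4.3.3 was fitted to log2(FPKM + 1) with an intensity trend, over the 15620 genes whose mean reached 0.5 FPKM, with Benjamini-Hochberg adjustment over all of them and a two-sided threshold of 0.05. On this scale the fold changes of low genes come out too small. The code of the fit was tested on simulated data in which genes varied independently. In the real libraries genes deviate together, so that test does not cover shared deviations. Summaries were made in pandas 2.3.3 under Python 3.11.15. GC content and length were corrected by splines with 4 degrees of freedom on the deviation of each library from the gene mean, with the transcript of median length standing for the gene, for 99.64% of the genes tested.

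Deviations of same-numbered libraries from their group means correlated across genes at 0.3, 0.546 and 0.214 for replicates 1, 2 and 3. All exceed 0.1, but the labels state no pairing. The main fit used the group only, and the numbers entered as a replicate block in an alternative fit. Control replicate 1 and DDX17_KO replicate 3, with different numbers, reached 0.329, and control replicate 3 and DDX17_KO replicate 1 reached 0.19. The values therefore do not show that replicates 1 and 3 are paired by number.

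The genes and lists were chosen with earlier results of these data known. Named were all 9 members, DDX17, up to 2 genes per list and direction with the largest change among those whose groups did not overlap and whose mean was at least 1 FPKM, otherwise the 2 most abundant, and 3 genes most like the leading receptor and ligand. Alternatives were pseudocounts of 0.1 and 0.01, quantile normalization or scaling by median of ratios, a minimum mean of 2 FPKM or none, a replicate block, no trend, robust variance, the GC and length correction with and without the block, and each library left out. Added after seeing the data were leaving out both libraries numbered 2, the correction without DDX17_KO replicate 2, and the list counts under each setting. ERBB3 has another locus in GENCODE 29, and leukocyte and endothelial markers summed to at most 0.316 and 0.752 FPKM in any library.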

Additional observations from a re-analysis of the deposited data

How the results depend on the processing

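Under all 19 other settings limma called 0 members of the EGFR family. The count of all genes called was 6, and 4 to 8 in the other settings with a filter and all 6 libraries; it was 3 with no filter, 3 to 572 with single libraries left out, with 572 from leaving out DDX17_KO replicate 2, 1376 without both libraries numbered 2, and 339 with the GC and length correction without DDX17_KO replicate 2. Of the pathway lists 0 genes were called, 0 to 7 with single libraries left out, 18 without both libraries numbered 2, 10 higher and 8 lower, and 3, all lower, with that correction and without DDX17_KO replicate 2. The replicate block gave 4 genes and 0 members, and changed no call of a member; the limma adjusted p with the block was 0.0919 for AREG and 0.109 for ERBB2. The sign turned for EGFR with quantile normalization, at 0.05, with the GC and length correction, with and without the block, at 0.06, at 0.02 when control replicate 3 was left out, and at 0.20 when DDX17_KO replicate 2 was; single libraries left out gave EGFR values from -0.30 to 0.20. Without both libraries numbered 2 EGFR was at 0.03, TGFA at 0.19 and ERRFI1 at 0.03, and with the correction and without DDX17_KO replicate 2 they were at 0.41, 0.28 and 0.23. With single libraries left out TGFA ran from -0.36 to 0.19 and ERRFI1 from -0.34 to 0.13, both highest without DDX17_KO replicate 2. EREG turned to -0.09 when control replicate 2 and to -0.41 when DDX17_KO replicate 3 was left out, within a range from -0.41 to 0.41. HBEGF turned with median-of-ratios scaling, at 0.00, and to 0.08 and 0.02 when DDX17_KO replicate 1 or 3 was left out; single libraries left out gave values from -0.24 to 0.08, and the correction without DDX17_KO replicate 2 gave -0.49 with a limma adjusted p of 0.0945. The cause was not tested. No scaling moved the median of all genes by more than 0.1 in log2 units. Depth limits BTC, ERBB3 and AREG most.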
